A study of Mus musculus with 6 samples.

Results

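The S100 proteins are small calcium-binding proteins with a pair of EF-hand motifs, and 10 of their genes are described here in the small intestine of control mouse embryos and of embryos labelled as conditional knockouts of the E-cadherin gene. The genes are S100a1, S100a4, S100a6, S100a8, S100a9, S100a10, S100a11, S100a13, S100a14 and S100g, 10 of the 19938 genes measured. Each was taken from the probe sets whose annotation names that gene alone, 11 probe sets in all, and the brighter probe set was used for S100a11, which has more than 1. By their usual site of expression the members were read as epithelial (S100a10, S100a11, S100a14, S100g), mesenchymal (S100a4, S100a6), neutrophil (S100a8, S100a9) and broad (S100a1, S100a13). These names come from general knowledge and not from these arrays, and several of the genes are made by more than 1 kind of cell.

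Whole embryonic small intestine was collected at E18.5 from 3 controls, labelled wildtype, and from 3 samples labelled E-cadherin conditional knockout (cKO below), and total RNA was hybridised to Affymetrix Mouse Gene 1.0 arrays. The labels name no recombinase driver, deleted exon, strain or sex, and they leave it unsaid whether each sample is a separate animal. The spread behind every p-value is that among these samples and could be technical. In whole tissue, fewer cells of a type and less RNA per cell cannot be told apart.

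In a cell, calcium binding exposes a surface on most S100 dimers that grips partner proteins, among them annexins, non-muscle myosin and ubiquitin ligase adaptors. S100A10 is the exception that has lost calcium binding and sits permanently in the open form, bound to annexin A2. Some members are released and act on receptors of neighbouring cells, as the S100A8 and S100A9 complex of neutrophils (calprotectin) does, while S100G (calbindin of the small kind) ferries calcium across the absorptive enterocyte. The genes lie mostly in 1 cluster on mouse chromosome 3, beside the genes of the squamous cornified envelope, and S100g lies on the X chromosome.

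The arrays of 1 group resembled each other more than those of the other group, with correlations over genes of 0.981 to 0.987 among controls, 0.972 to 0.978 among cKO arrays and 0.929 to 0.966 between groups. Cdh1, the E-cadherin gene, read 9.86, 9.82 and 10.15 on controls 1, 2 and 3 and 9.70, 8.38 and 8.91 on cKO 1, 2 and 3, in log2 units. Its difference of -0.95 (SE 0.31) did not pass the threshold in limma (adjusted p = 0.088), and the lowering was least on cKO 1. The labels do not say whether its probes lie in the deleted part. Control 1 stood apart in sex-linked genes: Xist read 7.43 there and 4.84 to 5.0 elsewhere, and Eif2s3y, a Y-linked gene, read 4.21 there and 8.01 to 8.31 elsewhere. The Y-linked Uty read 3.33 there and 6.94 to 7.69 elsewhere. Kdm5d, also Y-linked, did not set control 1 apart, with 7.44 there and 7.24 to 8.13 elsewhere. Background was read on each array from 1227 genes for smell, pheromone and taste receptors, as their 95th percentile. It lay between 5.79 (cKO 2) and 6.36 (control 3), and a value under it is called below background.

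Of the 10 members, 4 rose and 2 fell in cKO (limma, adjusted p under 0.05 over all genes), where 14.2% of all genes tested passed, 6.81% in the higher and 7.36% in the lower direction. As measured, all 6 differed by 2-fold or more, as 4.38% of all genes tested did while passing. Among genes in the brighter part of the array, at or above the median over all genes, 4 of 6 members and 22.1% of the genes passed. The largest differences were those of S100a6, 6.31-fold higher, and of S100a1 and S100g, 5.76-fold and 4.75-fold lower. S100a11 was 2.29-fold higher. S100a14 and S100a8 rose as well, from controls below background. S100a4, S100a9, S100a10 and S100a13 did not pass. The groups did not overlap for 8 members (S100a4 and S100a13 overlapped), against 35.4% of all genes. Of the 4 epithelial members 2 rose and 1 fell. In the mesenchymal, neutrophil and broad classes 1 of 2 members each was called, the uncalled S100a4 being below background on all 6 arrays and both neutrophil members on 5 of 6. The median difference was 0.42 over the 10 members and -0.09 over all genes.

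**Figure D1:**
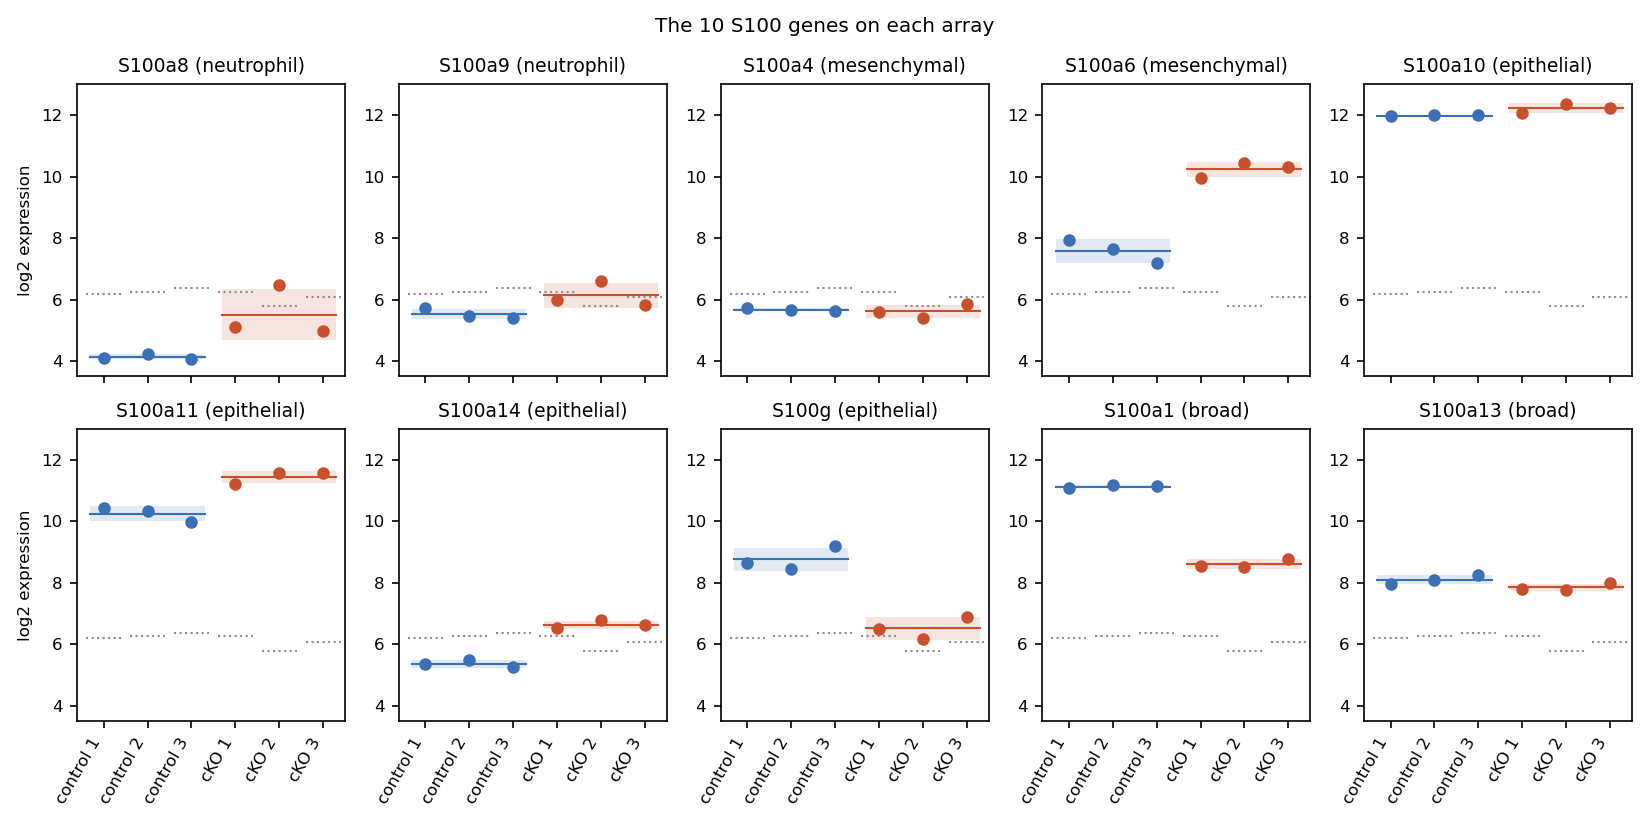
Log2 expression of the 10 S100 genes on each of the 3 control (blue) and 3 cKO arrays (orange). Points are arrays, solid lines group means, bands 1 SD, and dotted lines the background of each array. S100a6 sits between 9.97 and 10.44 on the cKO arrays and between 7.18 and 7.93 on the controls, while S100a1 moves the other way and S100a4 stays below background on all 6 arrays.

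Upstream sequence from RefSeq (GRCm38.p6) was found for 8 of the 10 members. It is shown for the genes on which the differences turn, so that the sequence in front of members that moved in opposite directions can be compared. The 250 bases before each start were searched on both strands for AP-1 (TGANTCA), TEAD (GGAATG), C/EBP (TTGCNNAA), CDX (TTTATG), HNF4 (CAAAGNNCA), TATA box (TATAAA) and GC box (GGGCGG) letters, and no match overlapped another. Capitals mark a match, and each sequence reads 5′ to 3′ on the strand of its gene. S100a11 (chr3:93520246-93520495, plus strand) held 2 AP-1 and 3 GC box matches, S100a6 (chr3:90612644-90612893, plus strand) 1 CDX match and S100g (chrX:162964600-162964849, minus strand) 1 C/EBP match.
S100a11: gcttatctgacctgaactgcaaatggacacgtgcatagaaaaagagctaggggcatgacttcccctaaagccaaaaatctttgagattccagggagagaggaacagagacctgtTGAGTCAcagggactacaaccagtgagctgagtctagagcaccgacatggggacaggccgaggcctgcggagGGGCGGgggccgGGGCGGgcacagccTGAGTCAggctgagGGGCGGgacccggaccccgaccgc
S100a6: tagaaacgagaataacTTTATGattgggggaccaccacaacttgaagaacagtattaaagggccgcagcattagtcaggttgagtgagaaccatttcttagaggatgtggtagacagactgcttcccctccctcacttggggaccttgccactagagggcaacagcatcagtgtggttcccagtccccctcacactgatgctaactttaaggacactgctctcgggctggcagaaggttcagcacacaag
S100g: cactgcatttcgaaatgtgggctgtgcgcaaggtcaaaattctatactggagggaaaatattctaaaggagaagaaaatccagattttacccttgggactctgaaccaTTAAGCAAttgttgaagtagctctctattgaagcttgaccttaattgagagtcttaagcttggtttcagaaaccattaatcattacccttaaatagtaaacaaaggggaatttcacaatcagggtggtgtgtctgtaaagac
The AP-1 letters stood in 1 of the 8 members' windows and in 6.75% of the 32851 RefSeq windows of the same length. For the others the members and all windows were GC box 2 of 8 and 32.7%, TATA box 2 of 8 and 12.4%, C/EBP 2 of 8 and 9.56%, CDX 1 of 8 and 10.8%, TEAD 0 of 8 and 12.6%, and HNF4 0 of 8 and 5.49%. The TATA boxes belonged to S100a4 and S100a8, the C/EBP matches to S100a9 and S100g, and the GC boxes to S100a9 and S100a11. A match is a description of letters, and none of these shares was tested.

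S100a1 and S100a13 start head to head, 105 bases apart, with S100a1 read from the minus and S100a13 from the plus strand. The 104 bases between the starts (chr3:90514331-90514434, GRCm38.p6, plus strand) are shown because both genes begin at their edges while their differences were -2.53 and -0.26. They hold none of the motifs searched.
S100a13 and S100a1: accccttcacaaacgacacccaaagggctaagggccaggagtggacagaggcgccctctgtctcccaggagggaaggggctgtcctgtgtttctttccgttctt
S100a1, a dimeric S100 protein best known as a regulator of calcium release and contraction in heart and skeletal muscle, read 11.07, 11.17 and 11.15 on controls 1, 2 and 3 and 8.53, 8.50 and 8.78 on cKO 1, 2 and 3 (probe set 10499854). Every cKO array lay at least 2.29 below every control array. The mean fell from 11.13 ± 0.05 to 8.60 ± 0.15 (SD, n = 3 each), and the difference was -2.53 (SE 0.12, 95% interval -2.81 to -2.24, limma adjusted p = 0.00038). This was the 44th most negative difference of the 19938 genes, and all 6 arrays remained well above background. S100a13, which takes part in the release of growth factors that lack a signal peptide, read 7.95, 8.10 and 8.26 in controls and 7.78, 7.77 and 7.99 in cKO (probe set 10493789). The groups overlapped, and the difference of -0.26 (95% interval -0.56 to 0.05) did not pass (limma adjusted p = 0.25). The interval of S100a13 does not reach that of its neighbour, and the difference between the 2 genes was not tested. Fgf1, the growth factor gene whose protein S100A13 accompanies, differed by -0.02, and Il1a by -0.26, neither past the threshold (limma adjusted p = 0.96 and 0.51).

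S100g encodes the cytosolic calcium shuttle of absorptive enterocytes, a classical target of the vitamin D receptor. It read 8.65, 8.45 and 9.18 on controls 1, 2 and 3 and 6.49, 6.16 and 6.89 on cKO 1, 2 and 3 (probe set 10607705). The groups lay 1.56 apart, and the cKO values came close to the background of their arrays without falling below it. The mean went from 8.76 ± 0.38 to 6.51 ± 0.37 (SD, n = 3 each), and the difference was -2.25 (SE 0.24, 95% interval -2.82 to -1.67, limma adjusted p = 0.0020). S100g is X-linked, and control 1, the only array with high Xist, read within the range of the other controls. No cKO array had high Xist, and a part of sex in the difference was not tested.

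Of 10 other measured genes of vitamin D signalling and calcium absorption, 1 rose and 1 fell (1 higher and 4 lower at unadjusted p under 0.05). Of their differences 8 were below 0, with a median of -0.29 beside -0.09 over all genes. The receptor gene Vdr differed by -0.43 (limma adjusted p = 0.14), its partner Rxra by -0.30 (0.11), and the basolateral calcium pump gene Atp2b1 by 0.17 (0.41). The apical calcium channel gene Trpv6 was below background on all 6 arrays. The sodium-calcium exchanger gene Slc8a1, which smooth muscle and heart also express, rose by 1.14 (SE 0.15, limma adjusted p = 0.0036). The claudin gene Cldn12 fell by 0.44, a call that any array but cKO 1 could end when left out (highest limma adjusted p = 0.16). Enterocyte markers moved with S100g: 7 of 9 fell, with a median of -1.16, among them Lct (lactase), by 3.16, and Fabp1 (a fatty acid binding protein), by 1.89. Of these 7 calls 5 held with any 1 array left out. The summed log2 level of the 9 markers ran from 104.5 to 110.2 over the controls and from 93.3 to 96.6 over the cKO arrays, and all 9 were above background on every array. Its part in the fall of S100g was not tested. Genes shared by all intestinal epithelium moved in both directions, with 4 of 12 higher and 3 lower and a median of -0.12. Of these 7 calls 4 held with any 1 array left out, Cdx2 being the only lower gene among them. Epcam was among those not called (-0.10, limma adjusted p = 0.59).

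By likeness of pattern, measured as the root mean square difference over the 6 arrays after the control mean of each gene is subtracted, the 4 genes nearest to S100g among 9973 brighter genes were Lrat, which esterifies retinol, at 0.23, Faah at 0.24, Gstp3 at 0.27 and Hpn at 0.28 log2 units. The choice rests on the same arrays, so their falls of 2.16, 2.28, 2.30 and 2.15 describe the likeness and are not support for it.

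S100a6 (calcyclin), made by fibroblasts and by fetal and healing epithelium, read 7.93, 7.64 and 7.18 on controls 1, 2 and 3 and 9.97, 10.44 and 10.31 on cKO 1, 2 and 3 (probe set 10493820). Every cKO value lay at least 2.04 above every control value. The mean rose from 7.58 ± 0.38 to 10.24 ± 0.24 (SD, n = 3 each), with a 95% interval of the difference of 2.15 to 3.16 (limma adjusted p = 0.00078). It was the 19th most positive difference of the 19938 genes. S100a4 (fibroblast-specific protein, a binder of non-muscle myosin), the other mesenchymal member, read 5.73, 5.66 and 5.63 in controls and 5.60, 5.40 and 5.84 in cKO (probe set 10493812). All 6 values were below background, so a difference between the groups was not measurable for this gene (-0.06, 95% interval -0.38 to 0.26, limma adjusted p = 0.80).

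Markers of fibroblasts rose in 7 of 11 cases, with a median of 0.62. The calls of Pdgfra, at 1.23, and Vim, at 0.76, held with any 1 array left out, and the other 5 were lost with at least 1 array. Their summed log2 level was 105.1 to 107.3 in controls and 110.1 to 112.7 in cKO. All 8 smooth muscle markers rose (median 0.87), with Des at 1.35 and Cnn1 at 1.23, the calls of 4 of them being lost with at least 1 array left out. Of 9 measured genes listed for fetal and regenerating epithelium, all rose, with a median of 3.21, though 4 of them were below background in every control. That list was drawn up with results of these arrays known and is not independent evidence of its direction. The 4 genes most like S100a6 over the 6 arrays were Mboat1 (0.15), Anxa1 (0.19), Gml (0.25) and Clu (0.32 log2 units), with the same limit on the choice. The parts of these cell types in the rise of S100a6 were not tested.

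Among its binding partners, Cacybp, the adaptor known as calcyclin-binding protein, differed by 0.08, Sugt1 by 0.06 and the annexin gene Anxa11 by -0.01, each with limma adjusted p of 0.70 or more. Their 95% intervals ended at 0.37, 0.36 and 0.26. These 3 were chosen as known partners of this protein, and other annexin genes rose, as given below for the whole partner list.

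S100a10, known as p11 and the light chain of the annexin A2 complex, read 11.97, 12 and 12 on controls 1, 2 and 3 and 12.06, 12.37 and 12.25 on cKO 1, 2 and 3 (probe set 10493995). The cKO values all lay above the controls by a margin of 0.06, and the difference of 0.24 (SE 0.12, 95% interval -0.04 to 0.52) did not pass (limma adjusted p = 0.24). Anxa2 read 10.78, 10.85 and 10.67 in controls and 11.52, 11.96 and 11.86 in cKO. It rose by 1.01 (SE 0.14, limma adjusted p = 0.0048), and Ahnak, a scaffold that the complex anchors at the membrane, rose by 1.20 (SE 0.13, limma adjusted p = 0.0021). The log2 difference S100a10 minus Anxa2 was 1.22 ± 0.09 in controls and 0.45 ± 0.08 in cKO (SD, n = 3 each), a change of -0.78.

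The annexin A2 complex is known as a cell surface receptor of plasminogen and its activators. Of 6 measured genes of this system 3 rose and 1 fell. Plaur, the urokinase receptor gene, rose by 2.97 (SE 0.27) as measured, and by at least 6.53-fold against the background of the controls, which it did not exceed. Plat, the tissue-type activator gene, rose by 2.14 (SE 0.15), with 1 of 3 controls above background, so that its rise may be understated, and Plau, the urokinase gene, by 1.61 (SE 0.12). Plgrkt, a plasminogen receptor gene, fell by 1.14 (SE 0.17). These 4 calls held with any 1 array left out (limma, highest adjusted p = 0.033). Plg itself was below background on all 6 arrays.

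**Figure D2:**
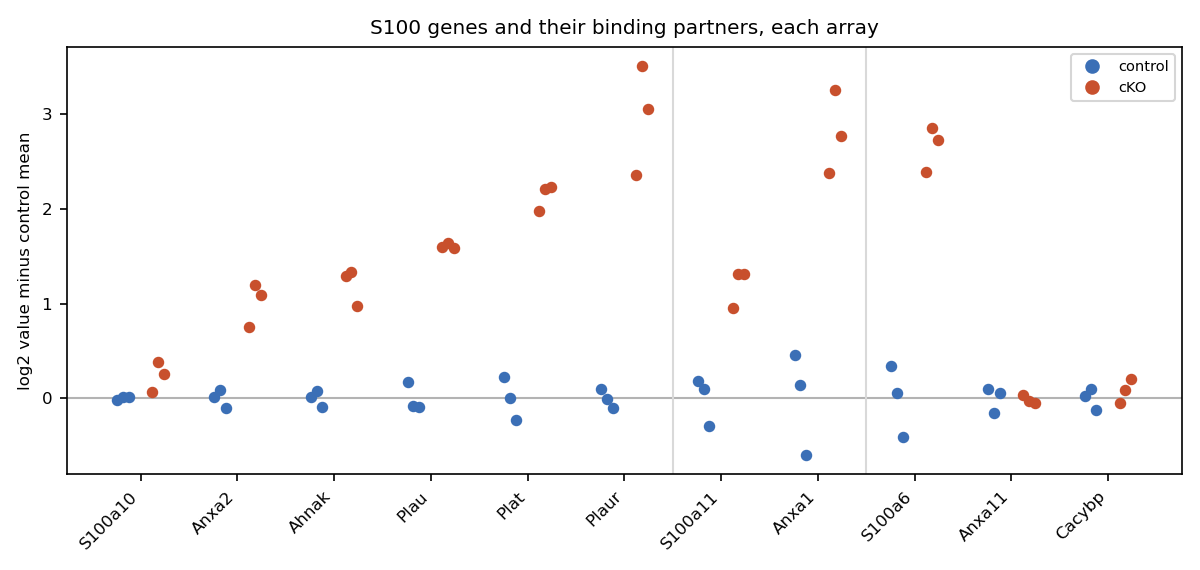
Log2 values of S100 genes and of known partners on each array, less the control mean of the gene, for controls (blue) and cKO (orange). The left block holds S100a10, Anxa2, Ahnak and genes of plasminogen activation, the middle block S100a11 and Anxa1, and the right block S100a6, Anxa11 and Cacybp. S100a10 moved by 0.24 beside Anxa2 at 1.01, and S100a6 by 2.66 beside Anxa11 at -0.01.

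S100a11 (calgizzarin), a partner of annexin A1 in epithelium and at sites of membrane repair, read 10.43, 10.35 and 9.96 on controls 1, 2 and 3 and 11.20, 11.56 and 11.56 on cKO 1, 2 and 3 (probe set 10457640). The lowest cKO value lay 0.77 above the highest control. The difference was 1.19 (SE 0.17, 95% interval 0.79 to 1.59, limma adjusted p = 0.0048). A second probe set (10493990) read lower by 0.04 to 0.10 on each array and gave 1.17 (SE 0.16, limma adjusted p = 0.0049 over 21789 probe sets). Both probe sets carry the same transcript accessions, and a pseudogene of S100a11 exists, so they may share signal and are not independent measurements. Anxa1 read 8.33, 8.02 and 7.28 in controls and 10.26, 11.13 and 10.65 in cKO. It rose by 2.80 (SE 0.31, limma adjusted p = 0.0021), and the difference S100a11 minus Anxa1 shrank by 1.61.

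S100a14, a gene of epithelial cells, read 5.35, 5.47 and 5.24 on controls 1, 2 and 3 and 6.52, 6.78 and 6.61 on cKO 1, 2 and 3 (probe set 10493794). All controls were below background and all cKO arrays above it. As measured the difference was 1.28 (SE 0.12, 95% interval 0.99 to 1.57, limma adjusted p = 0.0013), and against the background of the control arrays S100a14 was at least 1.29-fold higher. The neighbouring S100a16 read 8.10, 8.32 and 8.07 in controls and 8.46, 8.73 and 8.63 in cKO, and its difference of 0.44 (SE 0.13) did not pass (limma adjusted p = 0.062).

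S100a8 and S100a9 encode the calprotectin complex, which neutrophils hold in large amounts and which binds metals and calcium. S100a8 read 4.10, 4.23 and 4.08 on controls 1, 2 and 3 and 5.11, 6.46 and 4.96 on cKO 1, 2 and 3 (probe set 10493831). The highest value by far was cKO 2, the only array on which the gene was above background. The difference of 1.37 (SE 0.37, 95% interval 0.51 to 2.23) passed narrowly (limma adjusted p = 0.047). It was 0.90 without cKO 2 (adjusted p = 0.0059) and was not called without control 1, 2 or 3 or cKO 1 (adjusted p = 0.12, 0.12, 0.15 and 0.052). S100a9 read 5.71, 5.48 and 5.41 in controls and 5.99, 6.59 and 5.82 in cKO (probe set 10499861). Again cKO 2 was highest and the only array above background, and the difference of 0.60 (SE 0.21, 95% interval 0.11 to 1.09) did not pass (limma adjusted p = 0.11). Without cKO 2 it was 0.37 (adjusted p = 0.13). With values below background set to it, an alternative added with the data in view, the differences were -0.0057 for S100a8 and 0.038 for S100a9. The floor itself differed between arrays, from 6.19 to 6.36 on the controls and from 5.79 to 6.25 on cKO. S100a4, below background on all 6 arrays, became -0.23 by that floor alone. These values therefore cannot show whether S100a8 or S100a9 differed above background.

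Among 14 neutrophil markers 2 rose and 0 fell (3 higher and 2 lower at unadjusted p under 0.05), with a list median of -0.01. Both were highest on cKO 2. Ly6g read 4.18, 4.0 and 4.32 in controls and 6.52, 9.27 and 6.54 in cKO, and Cxcr2, a chemokine receptor gene, 3.73, 3.87 and 3.63 in controls and 4.90, 7.32 and 5.58 in cKO. Both were below background in every control. Ly6g rose by 3.28 as measured and by at least 2.25-fold against that background, and Cxcr2, above background on cKO 2 alone, by 2.19 as measured, with no bound above 1. The markers ranked that array unevenly: of the 3 cKO values of each marker, cKO 2 held the highest for 5 and the lowest for 8 of the 14. It was also the array with the lowest median (6.17), so these counts cannot decide whether the list followed it. Leaving out any 1 control ended the call of Ly6g (highest limma adjusted p = 0.076) and leaving out any 1 control or cKO 3 that of Cxcr2 (highest 0.13). The granule genes Mpo, Ctsg, Camp, Ngp and Mmp8 were below background on all 6 arrays, and none of the 14 was listed at 0. The granule genes Elane and Prtn3 were above background on all 6 arrays. They differed by -0.40 and -0.23 and were not called (limma adjusted p = 0.11 and 0.39). Retnlg, also above background on all 6 arrays, differed by 0.30 (limma adjusted p = 0.17). The summed log2 level was 78.2 to 79.3 in controls and 82.8 to 85.9 in cKO, highest on cKO 2. Ly6g and Cxcr2, at 3.28 and 2.19, weigh most in that sum. Of the 14 differences 8 were below 0, so the sum does not show a rise of the list as a whole. Macrophage markers, some of whose cells also make S100a8 and S100a4, rose in 9 of 12 cases with a median of 1.05. Lyz2 was at 2.10 and C1qb at 1.24, and 8 of the 9 calls held with any 1 array left out (Mrc1 was lost without control 3). Their summed level was 88.7 to 90.7 in controls and 99.3 to 103.6 in cKO. The part of these cells in the values of S100a8 and S100a9 was not tested. The genes most like S100a8 were Sprr1b (0.28), Cd52 (0.33), Mrc1 and Vcan (0.34 log2 units each), all brighter than S100a8 by the search rule. The choice rests on the same arrays and on values of S100a8 below background on all but cKO 2. It is therefore not support for a part of any cell type.

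Of 7 measured receptor and signalling genes for extracellular S100 proteins, 1 rose and 1 fell (2 higher and 2 lower at unadjusted p under 0.05). Ager, the receptor for advanced glycation end products, which binds several S100 proteins, differed by -0.17 (limma adjusted p = 0.65) and Myd88 by 0.19 (0.52). Tlr4, the receptor of calprotectin, rose by 0.71 (limma adjusted p = 0.024) with controls below background and cKO above it on 1 array only, a call lost without control 2 or any 1 cKO array (highest 0.071). Cd36, a fatty acid receptor that also binds calprotectin, fell by 1.45 (limma adjusted p = 0.0069). Not called were Ly96, above background on all 6 arrays, at -0.42 (limma adjusted p = 0.13), and Cd33, below background in every control, at 0.91 (0.067). Of 15 binding partners 5 rose and 0 fell (7 higher and 0 lower at unadjusted p under 0.05). Besides Anxa1, Anxa2 and Ahnak these were Anxa5, by 0.67, and Myh9, the non-muscle myosin gene, by 0.50, and both calls were lost with some arrays left out (control 2 or cKO 3 for Anxa5, any 1 array but control 3 for Myh9, with adjusted p up to 0.067 and 0.14).

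Unequal change between genes was examined in 8 pairs by the log2 difference on each array, in which a shift equal for all genes of an array cancels. A shift that differs between bright and dim genes does not cancel. On cKO 2 the median of the receptor genes used as background lay 0.37 below their control mean, while S100a10 read its highest value there (12.37). In all 8 pairs the 3 cKO differences lay apart from the 3 control differences, which gives an exact two-sided permutation p = 0.1 and an adjusted p = 0.1, the smallest possible with 3 against 3, so no pair could pass 0.05. The pairs were chosen with earlier results known. For S100a6 and S100a14, each against S100g, the single genes already lay apart in opposite directions. Separation of these pairs follows from that and adds nothing to it. Between the classes, S100a6 minus S100g changed by 4.90, from -1.18 ± 0.71 to 3.73 ± 0.48 (SD, n = 3 each), and S100a8 minus S100a4 by 1.43, from -1.54 ± 0.10 to -0.10 ± 1.03 (SD, n = 3 each), a pair that lies below background in all but 1 value. Among epithelial members S100a10 minus S100a11 changed by -0.96, with both genes above background on every array. S100a14 minus S100g changed by 3.53, S100a6 minus S100a4 by 2.72 and S100a8 minus S100a9 by 0.77, but these rest on values of S100a14, S100a4, S100a8 and S100a9 below background, and no split within a class is read from them.

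Of 13 measured S100 and S100-fused genes that are not among the 10, 0 rose and 1 fell in limma (1 higher and 3 lower at unadjusted p under 0.05), with a median of -0.18, and 8 were below background on all 6 arrays. The gene that fell, S100z (-0.56, limma adjusted p = 0.023), was 1 of those 8, and leaving out cKO 3 or any 1 control ended its call (highest limma adjusted p = 0.10). S100b, a marker of enteric glia in mature gut, was below background on every array and differed by -0.19 (limma adjusted p = 0.42).

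**Figure D3:**
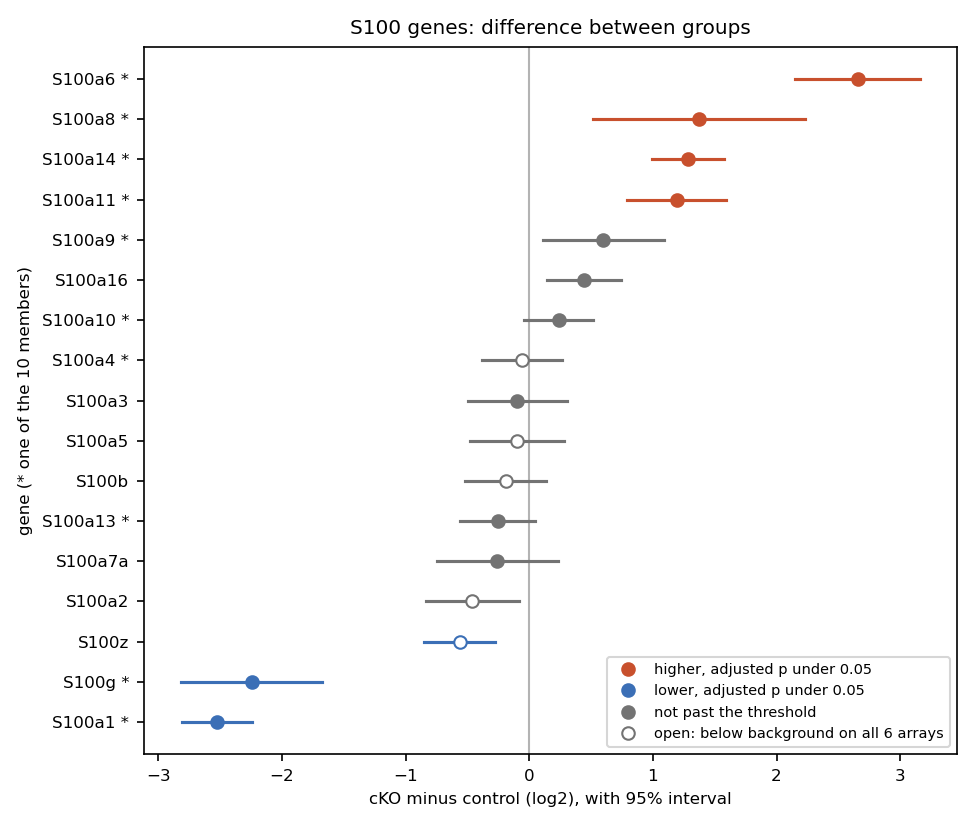
Difference between cKO and control (log2) with 95% intervals for 17 S100 genes, the 10 members being starred. Orange marks higher and blue lower genes past the threshold of limma, grey the rest, and open circles genes below background on all 6 arrays. S100a6 at 2.66 and S100a1 at -2.53 mark the ends, and the genes near 0 include S100a4 at -0.06 and S100a3 at -0.10.

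The chromosomal neighbours were compared by their order in the reference gene table. Along the stretch of chromosome 3 from Snapin to S100a10, 14 S100 genes and 48 other protein-coding genes were measured. Of the S100 genes 4 rose and 1 fell, and of the others 4 rose and 1 fell, 33 of the 48 being below background on all 6 arrays. S100a1 fell near Chtop, which differed by 0.07 (limma adjusted p = 0.78). S100a6 rose between S100a5, below background on all 6 arrays, and S100a7a, above it on 1, so that no difference could be measured for either neighbour. The other genes that rose were Sprr1a, by 4.19 as measured and at least 10.2-fold against controls below background, Sprr1b, Sprr2b and Sprr2e, small proline-rich proteins of the cornified envelope, while Smcp, a sperm mitochondrial protein gene, fell by 2.86. Sprr2b was below background on all 6 arrays, and its call was lost without control 2 or 3 or any 1 cKO array (highest limma adjusted p = 0.094). Over 23 measured genes listed for this complex, 4 rose and 2 fell, with a median of 0.03. Of 7 squamous keratin, p63 and desmoglein genes, 1 rose, Krt14 at 0.78, a call lost without control 1 or 3 or cKO 3 (highest 0.075).

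**Figure D4:**
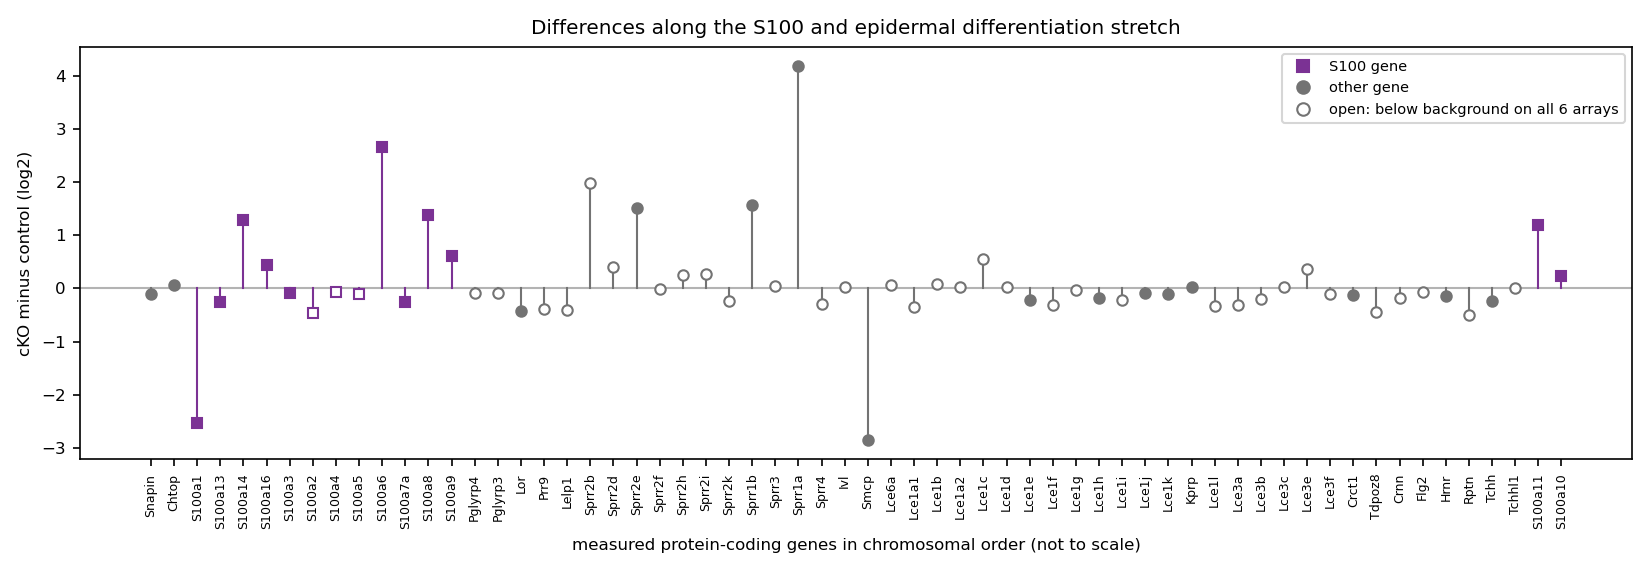
Difference between cKO and control (log2) of the measured protein-coding genes from Snapin to S100a10 in chromosomal order, not to scale. Purple squares are S100 genes, grey circles other genes, and open symbols genes below background on all 6 arrays. S100a1 at -2.53 and S100a6 at 2.66 are the lowest and highest S100 genes, with S100a14 at 1.28 and S100a8 at 1.37 close by. Sprr1a at 4.19 is the highest of the stretch.

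Other cell types that the tissue could hold were read from marker lists beside these results. None of the 6 glia and neuron markers, 5 endothelium, 5 pancreas, 3 erythroid and 4 sex-linked genes passed in limma (at unadjusted p under 0.05, 1 higher and 1 lower, 3 higher, 0, 0 and 0). Of 5 mesothelium markers 3 rose, with Lrrn4 at 1.21 the call that held with any 1 array left out. Pancreas markers were high on cKO 3, where Ctrb1, a digestive protease gene, read 12.39 against 5.62 to 7.03 elsewhere. The members on which most of the results turn did not depend on that array: without cKO 3 the calls of S100a1, S100a6, S100a11, S100a14 and S100g held, as they did with any other 1 array left out (limma, highest adjusted p = 0.024).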

How the data were processed

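Values were read from the authors' deposited table, which holds 1 value per probe set and array for 35512 probe sets. The series design text names dChip, and its version, background correction and normalization are not named in the sources used. The authors' deposited values were taken as log2 expression from their range, since no label states the scale, and fold changes depend on this. They were not normalized further. Precision is limited by the number of arrays.

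Probe sets were named by the platform annotation (21789 with 1 symbol, 1621 with several, 12102 with none listed), symbols being updated through the gene identifier for 21698, and the brightest probe set over the 6 arrays was kept, which left 19938 genes. Each gene was tested with limma 3.58.1 in R 4.3.3 (lmFit, eBayes, two-sided, all 6 arrays, no covariate, Benjamini-Hochberg adjustment over all genes, threshold 0.05). Differences are cKO minus control in log2 with the moderated standard error (SE). In simulated data on these 19938 genes, 100 genes were changed by 1 and 100 by 2 in log2, with independent normal noise. Of these, 68% and 89% were recovered. Far more genes, 14.2%, were called in the real data, and the simulation holds no shift of an array, so these shares need not apply to it. The members, the 20 gene lists and the pairs were chosen with earlier results of these data known. Named were the members, the S100 family and partner lists, up to 4 genes of smallest p in the other lists, Cdh1 and the 4 genes most like S100a8, S100a6 and S100g. Outside that rule, and chosen with their values seen, are Ager, Myd88, Trpv6, Atp2b1, Plg, Epcam, Ctrb1, Chtop, Sprr2b, Sprr2e, Retnlg and the neutrophil granule genes. Alternatives were other array scalings, filters on dim genes, other rules for probe sets, array weights, a moderated trend, a replicate block and leaving out each array. The replicate numbers showed no clear pairing of the samples (correlations of deviations -0.080, 0.13 and 0.14 for numbers 1, 2 and 3). With 3 arrays per group these correlations cannot exclude a pairing.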

Additional observations from a re-analysis of the deposited data

How the results depend on the processing

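S100a1, S100a6, S100a11 and S100g kept their direction and call under all 16 alternatives, and S100a14 under the 15 that gave it a value, with ranges of -2.62 to -2.42, 2.46 to 2.83, 1.05 to 1.31, -2.44 to -1.84 and 1.20 to 1.40. S100a9, S100a10 and S100a13 stayed uncalled in every alternative that gave a value. The call of S100a8 was lost with cyclic loess (1.51, adjusted p = 0.053), and its value ran from 0.90 to 1.65 with 1 array left out. S100a4 turned sign with quantile normalization (0.082), median centring (0.037), cyclic loess (0.075), array weights (0.10) and without cKO 2 (0.047), with -0.17 to 0.047 over the arrays left out, and was never called. With values below background set to it, S100a8 was -0.0057, S100a9 0.038, S100a4 -0.23 and S100a14 0.37, by construction of that floor. The number of members called was 4 to 6 of 10 throughout, the lowest number being that without the dimmer 50% of genes, where dim members are left out. The 2825 genes called became 5834 with array weights and 1226 to 2713 with 1 array left out (1226, 1505 and 1517 without control 2, control 3 and cKO 3), and the higher and lower calls went from 1358 and 1467 to 1830 and 1413 with quantile normalization and 1490 and 1091 with median centring. With the replicate block 2212 genes and the same number of members, 6, were called, and the block changed the call of 0 members. Since a pairing of the samples by number is not established, nothing more is read from the block. Of the listed genes, median centring gave 0 calls for the other S100 genes and 1 for calcium absorption, quantile normalization gave 1 for endothelium and 1 for pancreas, and cyclic loess gave 1 for pancreas. Calls among the binding partners went from 5 to 7 with quantile normalization and with cyclic loess. Those among enterocyte markers went from 7 to 6 with median centring. The cause of these changes was not tested. Pair differences kept their sign in the 7 alternatives run for them. Signal over background limits S100a4, S100a8, S100a9 and S100a14.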
